A study of Mus musculus with 23 samples.

Results

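The genes described here carry the calcium signal of a skeletal muscle fiber. They are Cacna1s, Ryr1, Jph1 and Trdn of the release site, Casq1 and Casq2 of the calcium store, Atp2a1, Atp2a2 and Sln of the reuptake pump, and Pvalb of the cytosol. The list of 10 genes was drawn up by name, with earlier results of these data known. Its shares of called genes are therefore not those of a list drawn up blind to the data. Each symbol matched 1 of the 55573 Ensembl gene IDs of the table of counts, and all 10 were among the 13049 genes that passed the filter on low counts.

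RNA came from the quadriceps of C57Bl6 mice (C57BL/6J in the study's methods) aged 8 to 10 weeks, with 1 library per mouse. Pellets under the skin released corticosterone, the main glucocorticoid of rodents, or vehicle for 14 days, and the mice were fasted for 5 hours before they were killed. A corticosterone pellet held 50 mg corticosterone and 50 mg cholesterol, and a vehicle pellet held 100 mg cholesterol, so all mice received cholesterol. The groups were 6 vehicle-treated males, 6 corticosterone-treated males, 6 vehicle-treated females and 5 corticosterone-treated females, and the study asked whether males and females respond differently to the hormone.

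An action potential in a muscle fiber is sensed by the voltage-gated channel that Cacna1s encodes, which opens the ryanodine receptor Ryr1 in the facing membrane of the sarcoplasmic reticulum. Calcium leaves the store, the myofibrils contract, and the SERCA pumps return the calcium to the store. Fast fibers use SERCA1, calsequestrin 1 and much parvalbumin, whereas slow fibers rely on SERCA2 and also hold calsequestrin 2.

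The sequences just before the start sites of the 4 genes that passed the test in at least 1 sex are shown, since they are the windows in which a glucocorticoid response element was searched. RefSeq's table on GRCm38.p6 gave windows for 6 of the 10 genes, with 2 windows for Pvalb. Windows of Atp2a2, Sln, Jph1 and Trdn were not used here. Each sequence runs 5′ to 3′ along the gene over the 250 bases before the start site, and capitals mark CAGCTG, an E-box of the kind that muscle transcription factors bind. The windows lie at chr1:172219896-172220145 for Casq1, chr15:78206401-78206650 for Pvalb, chr7:29125152-29125401 for Ryr1 and chr7:126463074-126463323 for Atp2a1, all on the minus strand.
Casq1: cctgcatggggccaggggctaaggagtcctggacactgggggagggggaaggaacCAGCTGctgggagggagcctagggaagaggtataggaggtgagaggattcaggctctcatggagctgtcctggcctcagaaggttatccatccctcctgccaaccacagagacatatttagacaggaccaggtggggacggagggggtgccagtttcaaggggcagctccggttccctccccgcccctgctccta
Pvalb: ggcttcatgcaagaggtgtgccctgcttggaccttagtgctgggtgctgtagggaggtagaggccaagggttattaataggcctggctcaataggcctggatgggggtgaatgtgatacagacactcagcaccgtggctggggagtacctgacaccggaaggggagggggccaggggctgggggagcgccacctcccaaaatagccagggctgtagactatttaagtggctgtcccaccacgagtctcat
Ryr1: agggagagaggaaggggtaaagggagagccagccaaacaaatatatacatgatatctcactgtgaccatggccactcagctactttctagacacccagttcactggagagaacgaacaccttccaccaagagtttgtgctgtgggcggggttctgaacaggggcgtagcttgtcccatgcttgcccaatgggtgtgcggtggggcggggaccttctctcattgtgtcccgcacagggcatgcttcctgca
Atp2a1: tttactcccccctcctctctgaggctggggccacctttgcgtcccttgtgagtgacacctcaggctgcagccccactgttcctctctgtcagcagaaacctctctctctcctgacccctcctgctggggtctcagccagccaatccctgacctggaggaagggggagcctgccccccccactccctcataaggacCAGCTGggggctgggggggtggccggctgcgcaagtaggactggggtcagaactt

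The palindromic glucocorticoid response element, searched as AGAACA, 3 free bases and TGTTCT, was in 0 of the 7 windows of these genes and in 3 of all 32807 RefSeq windows of the same length (0.00914%). The 6 bases AGAACA on either strand was also in 0 of the 7, against 16.1% of all windows. CAGCTG, a motif added after the sequences were seen, was in 3 of the 7 (Cacna1s, Atp2a1 and Casq1), against 13.0% of all windows. These matches describe the letters of short windows only.

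Each mouse had between 20904150 and 21984477 counts on genes, and normalization factors lay between 0.832 and 1.21. Skeletal muscle markers such as Acta1 and Ckm summed to between 46093 and 117445 CPM, counts scaled by library size, in each mouse. Mice fell apart by their slow fiber score, the mean log2 CPM of 8 slow-twitch markers such as Myh7, with 14 mice between -1.05 and 4.93 and 9 mice between 7.23 and 9.21, and both ranges held mice of all 4 groups. The corticosterone-treated females F2, F6 and F10 had higher adipocyte scores, the mean log2 CPM of 6 markers such as Adipoq, than all other 20 mice (8.21 to 9.41, against at most 6.64). These mice stood apart within their own group, although only Lep of the 6 markers rose in females at the threshold, and results in females are therefore given with and without them. Leaving them out was chosen after the data were seen and left 2 corticosterone-treated females. That fit called 130 of all 13049 tested genes in females, against 1748 with all mice, so a higher adjusted p in it does not show that an effect is absent. Of the 9 fast fiber markers, 1 rose and 1 fell in males and 2 fell in females, and 0 of the 8 slow fiber markers passed in either sex. Of the skeletal muscle markers, 1 of 6, Des, rose in each sex. Of 4 tested denervation markers 1, Myog, rose in males, where the list summed to 33.2 to 48.4 CPM with corticosterone and 14.7 to 29.3 with vehicle. Of the erythrocyte markers 4 of 5 rose in each sex, and of the fibroblast markers 2 of 4 fell in males and 1 of 4 in females. Among all tested genes 13.2% rose and 13.1% fell in males, and 7.40% rose and 6% fell in females. The part of these cell types in the results was not tested. In whole muscle, fewer cells of a type and less RNA per cell cannot be told apart.

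Levels per kilobase of exon in the 12 vehicle-treated mice put the genes of fast fibers first. Pvalb, the cytosolic calcium buffer, had the highest median (12373 CPM per kilobase), followed by Atp2a1 with 8703 and Casq1 with 1655. The ranges of Pvalb and Atp2a1 overlapped, whereas Casq1 overlapped with neither neighbour. Cacna1s (median 171), Ryr1 (121) and Trdn (110) followed, and within this trio neighbours in the order were not separated by their ranges. Jph1 had a median of 64.3 CPM per kilobase, below all 3. The lowest places were taken by Casq2 (13.7), Atp2a2 (8.96) and Sln (0.971), whose ranges overlapped. Atp2a2 alone spanned 4.81 to 205 CPM per kilobase.

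Corticosterone changed 4 of the 10 genes in males at an adjusted p under 0.01 in edgeR's quasi-likelihood test, and 2 of them in females. In males Ryr1 and Atp2a1 rose, where 13.2% of all tested genes rose, and Casq1 and Pvalb fell, where 13.1% fell. In females Casq1 and Pvalb fell, where 6% of all tested genes fell, and 0 of the 10 rose, where 7.40% rose. DESeq2 also called 0 rises in females, and the largest, that of Casq2, had an unadjusted p of 0.0268. The median log2 fold change (log2FC) over the 10 genes was 0.39 in males and -0.14 in females, against -0.02 and 0.04 over all tested genes. With the added limit that the study set, a log2FC beyond 1 in size, Casq1 was left in males and Pvalb in females. The falls of a store protein and a buffer passed in both sexes, and the rises of the release channel and the fast pump passed the test in males.

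**Figure D1:**
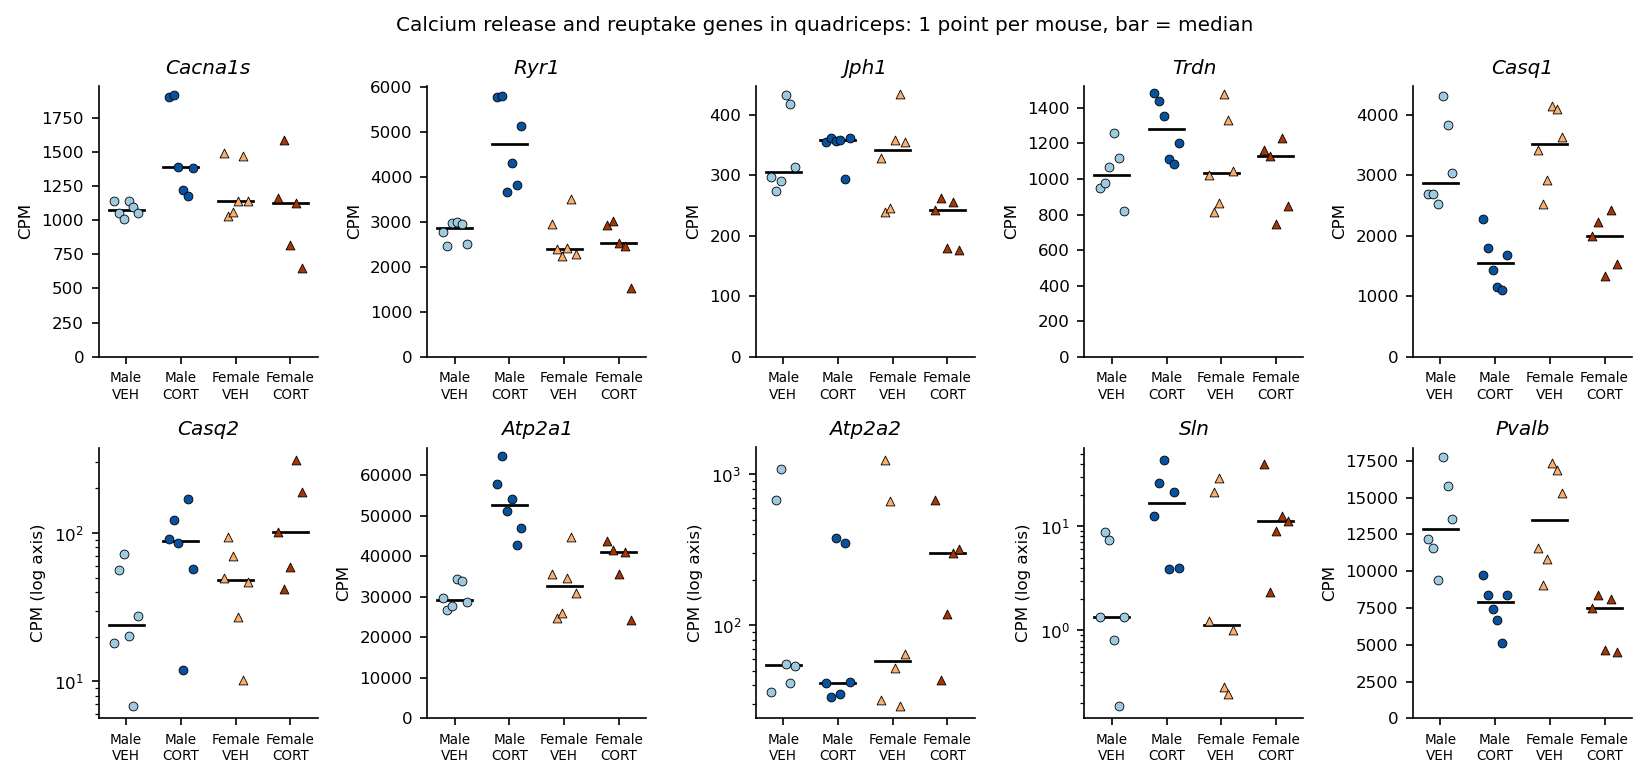
CPM of each of the 10 genes in each mouse, with 1 point per mouse, circles for males, triangles for females and a bar at the group median; Casq2, Atp2a2 and Sln have log axes. Corticosterone-treated males lie above all vehicle-treated males for Ryr1 (3659.85 to 5811 against 2461 to 2994 CPM), and corticosterone-treated mice of either sex lie below the vehicle-treated mice of their sex for Casq1.

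Ryr1 (ENSMUSG00000030592, chr7:29003344-29125179, minus strand) encodes the channel through which calcium leaves the store. Vehicle-treated males ranged from 2461 CPM over a median of 2869 to 2994, and corticosterone-treated males from 3659.85 over 4728 to 5811. The male groups did not overlap, and the rise was 1.71-fold (log2FC 0.77, SE 0.16, adjusted p = 0.000575). Among females the vehicle group ranged from 2232 over 2406 to 3518 CPM. The corticosterone-treated females had 2942 (F2), 3027 (F4), 2524 (F6), 2472 (F8) and 1532 CPM (F10). These 5 values lay within or below the vehicle range, and the log2FC was -0.08 (SE 0.17, 95% interval -0.40 to 0.25, adjusted p = 0.772). Without F2, F6 and F10 it was 0.05 (adjusted p = 0.928).

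Cacna1s (ENSMUSG00000026407, chr1:136052750-136119822, plus strand) encodes the voltage sensor in the transverse tubule. Its level ranged from 1005 over a median of 1073 to 1143 CPM in vehicle-treated males and from 1173 over 1386 to 1917 in corticosterone-treated males. Although the male groups did not overlap, the log2FC of 0.47 (SE 0.17) did not pass the threshold (adjusted p = 0.0327). It passed with each sex fitted alone (adjusted p = 0.00884), with limma-voom and sample weights (0.00812) and without F2, F6 and F10 (0.00722). Vehicle-treated females ranged from 1029.7 over 1142 to 1494 CPM. Corticosterone-treated females had 1161 (F2), 1586 (F4), 821 (F6), 1125 (F8) and 651 CPM (F10), so that the group held both the highest and the lowest female values. The log2FC in females was -0.19 (SE 0.18, adjusted p = 0.452), and 0.14 without F2, F6 and F10 (adjusted p = 0.759).

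Jph1 (ENSMUSG00000042686, chr1:16964560-17097889, minus strand) encodes junctophilin 1, which holds the tubule and the store membrane together. In males it ranged from 273 over 306 to 433 CPM with vehicle and from 293 over 358 to 362 with corticosterone. The corticosterone range lay inside the vehicle range, with a log2FC of 0.04 (SE 0.15, 95% interval -0.25 to 0.34, adjusted p = 0.844). In females the vehicle range was 239 over 342 to 435 CPM. The corticosterone-treated females had 242 (F2), 263 (F4), 180.1 (F6), 256 (F8) and 177 CPM (F10), all below the vehicle mean. The log2FC of -0.55 (SE 0.16) did not pass at 0.01 (adjusted p = 0.0142), whereas it passed in DESeq2 (adjusted p = 0.00353). Without F2, F6 and F10 it was -0.34 (adjusted p = 0.397).

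Trdn (ENSMUSG00000019787, chr10:33080554-33476709, plus strand) encodes triadin, which ties calsequestrin to the release channel. Males ranged from 821 over 1021 to 1261 CPM with vehicle and from 1083 over 1279 to 1486 with corticosterone. Females ranged from 815 over 1033 to 1478 CPM with vehicle and had 1161 (F2), 1128 (F4), 748 (F6), 1228 (F8) and 850 CPM (F10) with corticosterone. The groups overlapped in both sexes, with a log2FC of 0.31 in males (SE 0.15, adjusted p = 0.112) and -0.09 in females (SE 0.16, adjusted p = 0.706). The value in females was 0.10 without F2, F6 and F10 (adjusted p = 0.845).

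Casq1 (ENSMUSG00000007122, chr1:172209894-172219868, minus strand) encodes the main calcium-binding protein inside the store of fast fibers. Vehicle-treated males ranged from 2526 over 2867 to 4314 CPM and corticosterone-treated males from 1099 over 1555 to 2282. The 2 groups did not overlap, and Casq1 fell by 1.02 on the log2 scale (SE 0.19, adjusted p = 0.000302), to 0.494 of the vehicle level. Vehicle-treated females ranged from 2519 over 3522 to 4144 CPM. Corticosterone-treated females had 1992 (F2), 2228 (F4), 1334 (F6), 2419 (F8) and 1526 CPM (F10), each below every vehicle-treated female. In females the gene fell by 0.86 on the log2 scale (SE 0.20, adjusted p = 0.00402), to 0.550 of the vehicle level. The difference between the sexes in this response was -0.15 (95% interval -0.70 to 0.39, adjusted p = 0.725).

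Casq2 (ENSMUSG00000027861, chr3:102086415-102146514, plus strand) encodes the calsequestrin of slow fibers and heart. Males ranged from 6.81 over 23.9 to 71.8 CPM with vehicle and from 11.9 over 88.8 to 169 with corticosterone. Females ranged from 10.2 over 48.4 to 94.3 CPM with vehicle and had 101 (F2), 42.1 (F4), 59.3 (F6), 312 (F8) and 189 CPM (F10) with corticosterone. In both sexes the corticosterone median was higher but the groups overlapped. The difference was 2.68-fold in males (log2FC 1.42, SE 0.61, adjusted p = 0.0694) and 2.83-fold in females (SE 0.63 on the log2 scale, adjusted p = 0.0831). Without F2, F6 and F10 the log2FC in females was 1.82 (adjusted p = 0.234). Casq2 also went with Myh2, the marker used for type 2A fibers. M9, M8 and F9 had the least Myh2 (18.2, 22.0 and 30.4 CPM) and the least Casq2 (6.81, 11.9 and 10.2). F8 and F10 had the most Myh2 (4622 and 2948 CPM) and the most Casq2. Other mice followed less closely, such as F2 (526 CPM of Myh2) and M5 (2436 of Myh2, 71.8 of Casq2). The part of either fiber type in the Casq2 values was not tested.

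Within each mouse, Casq2 can be set against Casq1 free of the scaling between libraries. The log2 ratio of Casq2 to Casq1 per kilobase averaged -7.42 ± 1.46 (SD, n = 6) in vehicle-treated males and -4.94 ± 1.29 (SD, n = 6) in corticosterone-treated males, a difference of 2.47 (two-sided exact permutation test, p = 0.0108). In females it averaged -6.89 ± 1.39 (SD, n = 6) with vehicle and -4.58 ± 1.15 (SD, n = 5) with corticosterone, a difference of 2.30 (exact permutation p = 0.0173). As a share of both calsequestrin mRNAs per kilobase, Casq2 made up at most 2.60% in the vehicle-treated mice, and between 0.735% and 9.90% in the corticosterone-treated mice. Adjusted over the 6 ratio tests, p was 0.0519 in each sex, just above 0.05, where the smallest unadjusted p that the groups allow is 0.00216 in males and 0.00433 in females.

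Atp2a1 (ENSMUSG00000030730, chr7:126445858-126463108, minus strand) encodes SERCA1, the pump of fast fibers. Vehicle-treated males ranged from 26814 over 29139 to 34509 CPM and corticosterone-treated males from 42753 over 52664 to 64855. The 2 groups were separated by a wide gap, with a 1.76-fold rise (log2FC 0.81, SE 0.16, adjusted p = 0.00038). Vehicle-treated females ranged from 24723 over 32757 to 44658 CPM. Corticosterone-treated females had 43751 (F2), 41514 (F4), 35613 (F6), 41017 (F8) and 24362 CPM (F10), which spread over the vehicle range with F10 just below it. The log2FC in females was 0.19 (SE 0.17, 95% interval -0.14 to 0.51, adjusted p = 0.434), and 0.32 without F2, F6 and F10 (adjusted p = 0.381).

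Atp2a2 (ENSMUSG00000029467, chr5:122453513-122502225, minus strand) encodes SERCA2, the pump of slow fibers and heart. It varied more between mice of 1 group than between groups. Vehicle-treated males ranged from 36.0 over 54.5 to 1082 CPM, corticosterone-treated males from 33.5 over 41.9 to 381 and vehicle-treated females from 29.3 over 58.2 to 1244. Corticosterone-treated females had 673 (F2), 43.7 (F4), 119 (F6), 302 (F8) and 321 CPM (F10). The log2FC was -1.13 in males (SE 1.07, adjusted p = 0.422) and -0.26 in females (SE 1.12, adjusted p = 0.891), while limma-voom, which averages mice on the log scale, gave -0.25 in males and 1.56 in females. In males the value was -0.22 without M5 and -1.68 without M6, the ends of the range when 1 mouse was left out. In females it was -1.03 without F2, F6 and F10 (adjusted p = 0.806).

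The slow fiber score went with this spread. The 14 mice with a lower slow fiber score had between 29.3 and 119 CPM of Atp2a2, and the 9 mice with a higher score between 302 and 1244, with no overlap. Since the mice fell into these 2 clusters, no correlation over all mice is given. The ratio of Atp2a2 to Atp2a1 per kilobase differed between treatments by -1.39 on the log2 scale in males (exact permutation p = 0.279) and by 0.60 in females (exact permutation p = 0.662). The difference in females was -0.39 without F2, F6 and F10. Neither ratio of the pumps passed the test.

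**Figure D2:**
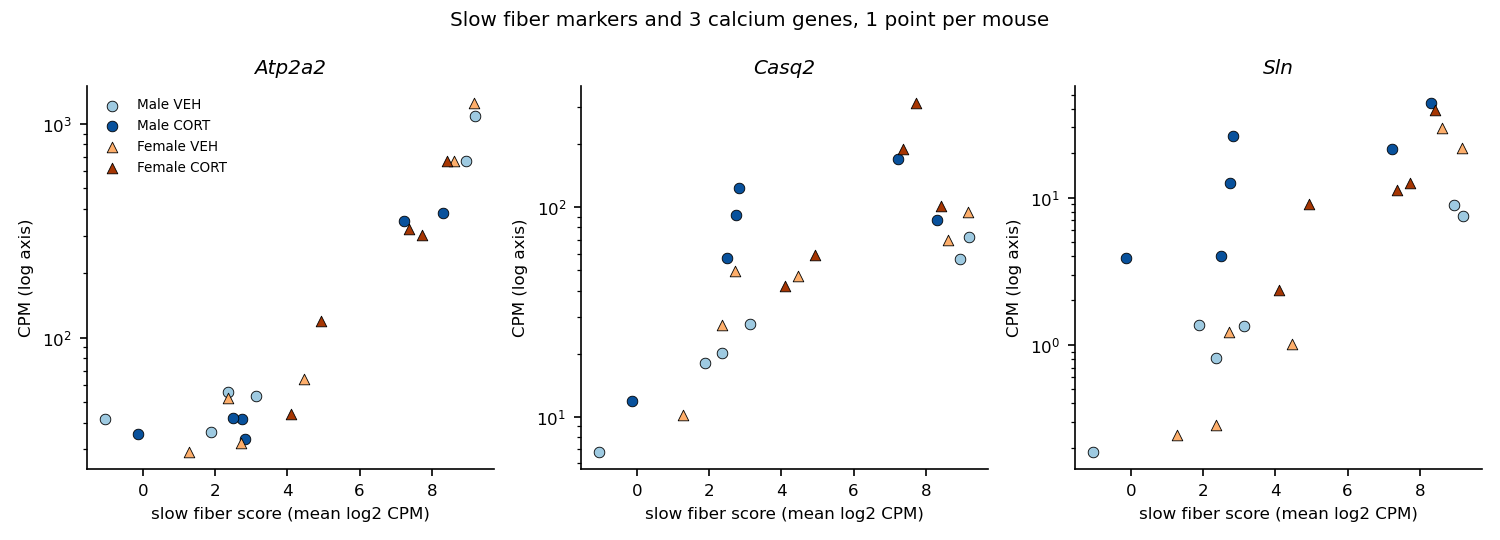
CPM of Atp2a2, Casq2 and Sln (log axes) against the slow fiber score (mean log2 CPM of 8 markers), with 1 point per mouse, circles for males, triangles for females and darker fill for corticosterone. Atp2a2 is between 302 and 1244 CPM in the 9 mice with a score above 7 and between 29.3 and 119 in the others, and at scores below 5 Sln is higher in the corticosterone-treated mice (2.36 to 26.1 CPM) than in the vehicle-treated mice (0.188 to 1.36). At scores above 7 Sln overlaps between corticosterone-treated (11.2 to 43.6 CPM) and vehicle-treated mice (7.47 to 29.4).

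Sln (ENSMUSG00000042045, chr9:53850164-53854560, plus strand) encodes sarcolipin, a small membrane protein that binds the SERCA pump and lowers its efficiency. It was the least abundant of the 10 genes, with between 4 and 871 counts per mouse. Males ranged from 0.188 over 1.35 to 8.89 CPM with vehicle and from 3.88 over 16.9 to 43.6 with corticosterone. Females ranged from 0.244 over 1.12 to 29.4 CPM with vehicle and had 39.4 (F2), 2.36 (F4), 9.01 (F6), 12.6 (F8) and 11.2 CPM (F10) with corticosterone. The groups overlapped, and the log2FC of 2.48 in males (SE 1.04, adjusted p = 0.0622) and 0.73 in females (SE 1.01, adjusted p = 0.637) did not pass. Without F2, F6 and F10 the value in females was -0.28 (adjusted p = 0.951).

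Sln ranged from 7.47 to 43.6 CPM in the 9 mice with a higher slow fiber score and from 0.188 to 26.1 in the 14 with a lower score. Among the 14 mice with a lower score, the 8 vehicle-treated mice had between 0.188 and 1.36 CPM and the 6 corticosterone-treated mice between 2.36 and 26.1, with no overlap. Among the 9 mice with a higher score the treatments overlapped, with 7.47 to 29.4 CPM in the 4 vehicle-treated and 11.2 to 43.6 in the 5 corticosterone-treated mice. The split by score was chosen after the scores were seen and was not tested. With the slow fiber score of each mouse as a covariate, Sln rose in males by 3.39 on the log2 scale (SE 0.58, adjusted p = 9.91e-05) and Casq2 by 1.71 (SE 0.40, adjusted p = 0.00185). In females the same fit gave 0.92 for Sln (SE 0.52, adjusted p = 0.197) and 1.02 for Casq2 (SE 0.42, adjusted p = 0.0804). The score was measured in the same libraries. The ratio of Sln to the sum of both pumps per kilobase differed by 2.15 in males (exact permutation p = 0.0671) and 2.18 in females (exact permutation p = 0.208) on the log2 scale.

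**Figure D3:**
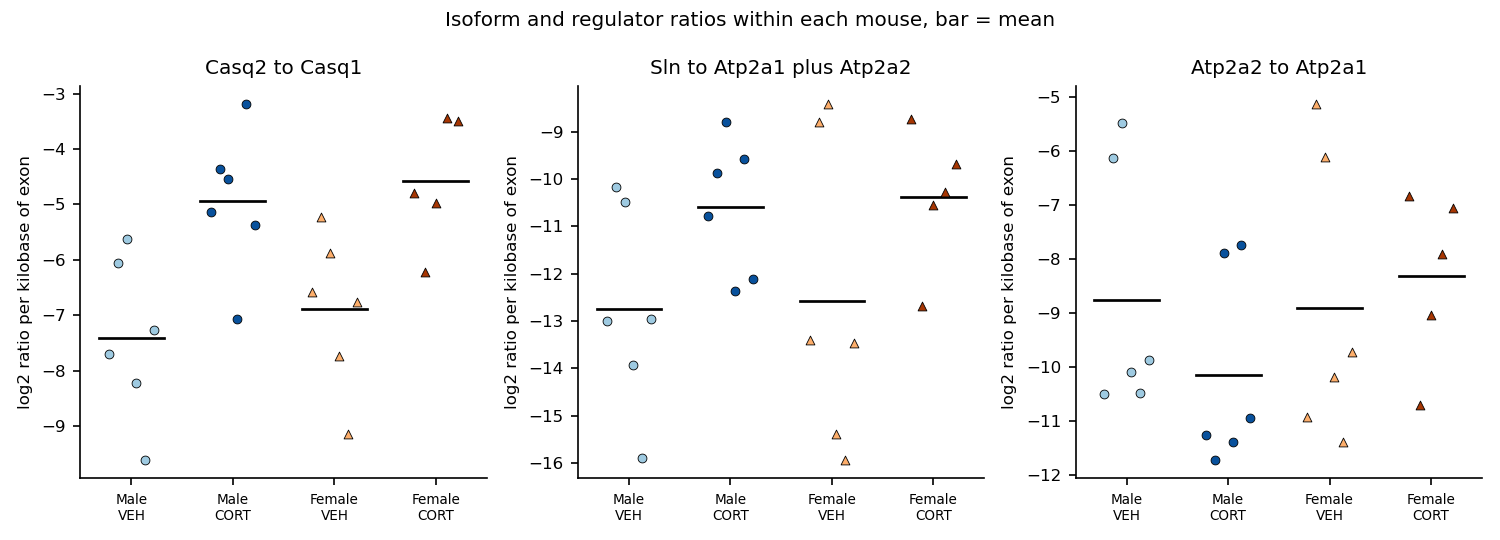
Log2 ratios per kilobase of exon within each mouse, with 1 point per mouse and a bar at the group mean, for Casq2 to Casq1, Sln to Atp2a1 plus Atp2a2, and Atp2a2 to Atp2a1. The mean of Casq2 to Casq1 is higher by 2.47 in corticosterone-treated males and by 2.30 in corticosterone-treated females than with vehicle, with overlapping points.

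Pvalb (ENSMUSG00000005716, chr15:78191114-78206400, minus strand) encodes parvalbumin, which takes up calcium in the cytosol of fast fibers and speeds relaxation. Vehicle-treated males ranged from 9422 over 12879.7 to 17742 CPM and corticosterone-treated males from 5097 over 7911 to 9771. The male groups met only at the edge, where the highest corticosterone value lay above the lowest vehicle value, and Pvalb fell by 0.81 on the log2 scale (SE 0.21, adjusted p = 0.00362). The call was lost without M7 or M10, with an adjusted p of at most 0.0115, and with no gene filter (0.0152). Vehicle-treated females ranged from 9086 over 13446 to 17366 CPM. Corticosterone-treated females had 7527 (F2), 8354 (F4), 4650.08 (F6), 8116 (F8) and 4529 CPM (F10), all below every vehicle-treated female. In females Pvalb fell by 1.03 on the log2 scale (SE 0.22, adjusted p = 0.00183), to 0.491 of the vehicle level. The difference between the sexes in this response was 0.22 (95% interval -0.37 to 0.80, adjusted p = 0.643).

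**Figure D4:**
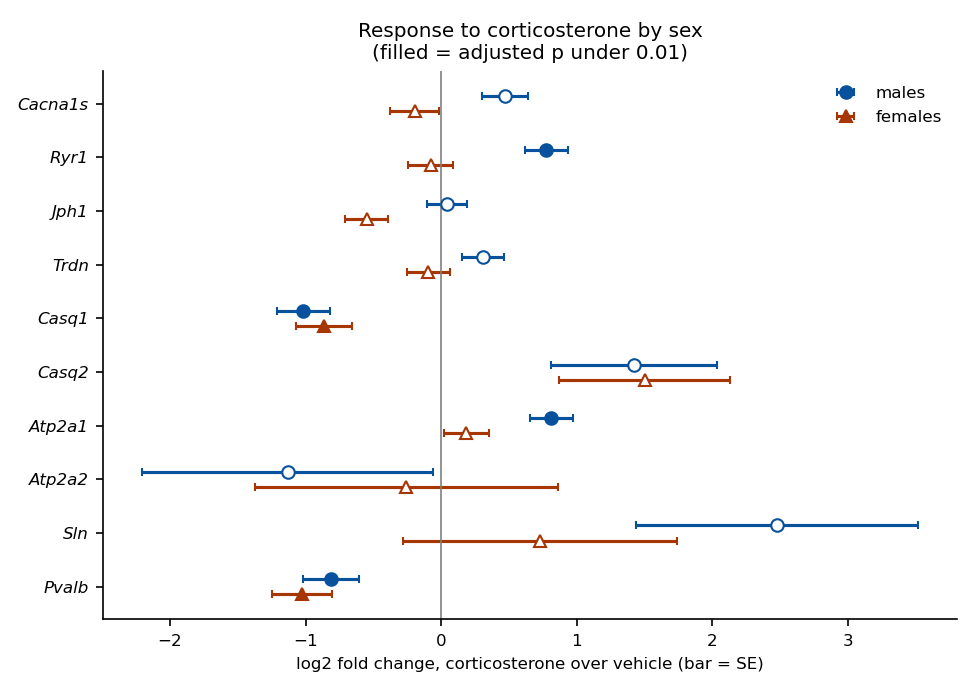
Log2 fold change of corticosterone over vehicle for each gene in males (circles) and females (triangles), with bars for the standard error and filled symbols for an adjusted p under 0.01. Casq1 and Pvalb are filled and below 0 in both sexes, and Ryr1 (0.77) and Atp2a1 (0.81) are filled in males.

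The calls of Casq1 and Pvalb in females depended on which mice entered the fit, and the group differed widely in adipocyte markers. Summed adipocyte markers came to 4147 CPM in F6, 2079 in F2, 1808 in F10, 551 in F4 and 36.7 in F8, against 57.5 to 1706 in vehicle-treated females, 30.3 to 550.3 in vehicle-treated males and 68.5 to 432 in corticosterone-treated males. F6 and F10 also had the lowest summed fast fiber markers of the group (75712 and 56373 CPM, against 100493 to 130520 in the other 3). Their 5 hepatocyte markers, such as Alb, summed to 1017 and 2251 CPM, against 37.0 to 180 in the other 3. These sums ranged from 29.7 to 287 CPM in vehicle-treated females but up to 1357 and 2284 in vehicle- and corticosterone-treated males. Macrophage markers summed to 54.1 and 62.7 CPM in F6 and F10, against at most 41.8 in other females. Leaving out F6, F7, F9 or F10 alone ended the call of Casq1, with an adjusted p of at most 0.0151, whereas Pvalb passed in all 23 fits that left out 1 mouse, and females fitted alone gave 0.014 for Casq1 and 0.0179 for Pvalb. Without F2, F6 and F10, which left 2 corticosterone-treated females, Casq1 fell by 0.58 (adjusted p = 0.245) and Pvalb by 0.72 (adjusted p = 0.15) on the log2 scale. In that fit 0 of the 10 genes and 130 of all 13049 tested genes passed. With the adipocyte score as a covariate, the log2FC was -0.66 for Casq1 (adjusted p = 0.0305) and -0.83 for Pvalb (adjusted p = 0.0153). The part of these cells in the falls was not tested. In males the same covariate left Casq1 at -0.98 (adjusted p = 0.000127) and Pvalb at -0.77 (adjusted p = 0.00254). The adipocyte sums of vehicle- and corticosterone-treated mice overlapped in each sex.

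**Figure D5:**
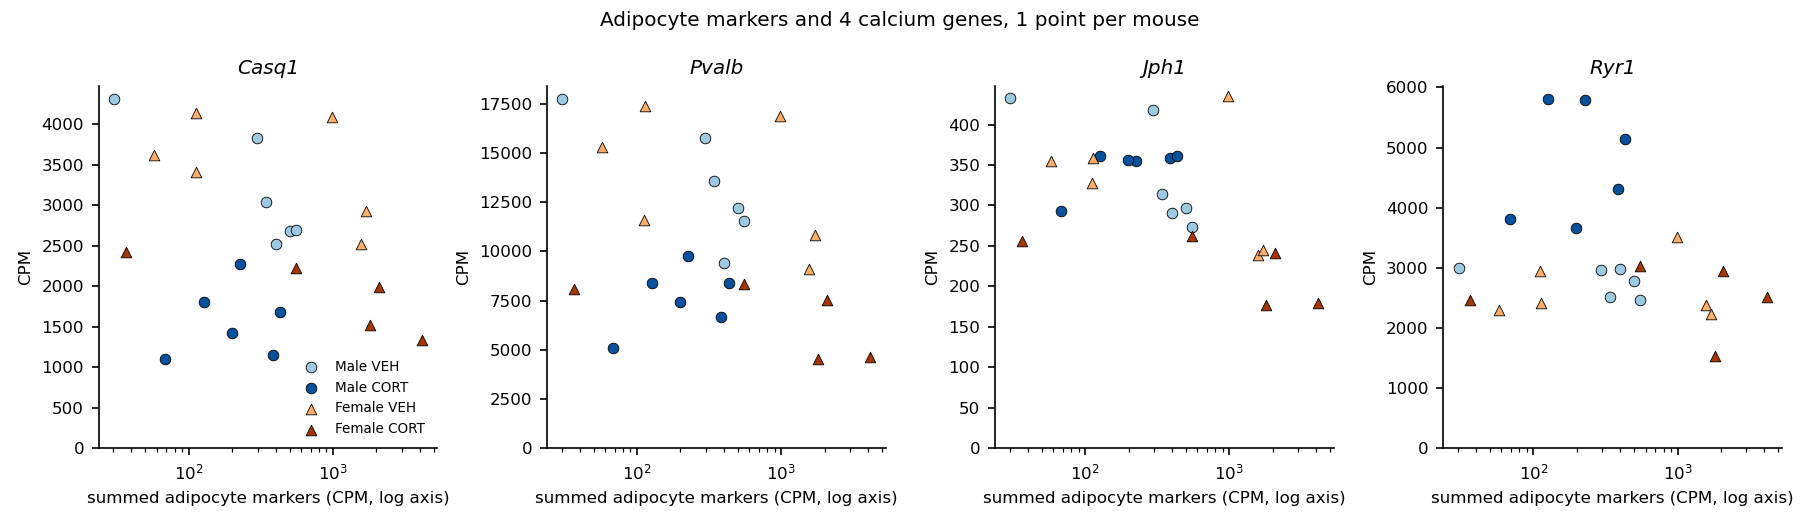
CPM of Casq1, Pvalb, Jph1 and Ryr1 against the summed CPM of 6 adipocyte markers (log axis), with 1 point per mouse, circles for males, triangles for females and darker fill for corticosterone. F6 and F10, at 4147 and 1808 CPM of adipocyte markers, hold the lowest Casq1, Pvalb and Jph1 values among females, and F8, at 36.7, has 2419 CPM of Casq1 and 8116 CPM of Pvalb.

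The difference between the male and the female response was tested as an interaction of sex and treatment. In edgeR 0 of the 10 genes passed, where 0.690% of all tested genes did. An unadjusted p under 0.05 was found for 4 of the 10, a share that was not set against all tested genes. DESeq2 called 1 of the 10, where it called 909 of all 13049 tested genes. That gene was Ryr1, whose response was higher in males by 0.85 on the log2 scale (SE 0.23, adjusted p = 0.0246 in edgeR and 0.00339 in DESeq2). Cacna1s (0.66, adjusted p = 0.0748), Atp2a1 (0.63, adjusted p = 0.0703) and Jph1 (0.59, adjusted p = 0.0719) were the other 3. For Ryr1 and Atp2a1, a rise that passed in males and not in females was therefore not shown to differ between the sexes by the test of the difference in edgeR.

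Between vehicle-treated males and females 0 of the 10 genes differed in edgeR, where 0.958% of all tested genes passed, and 0 had an unadjusted p under 0.05. DESeq2 called 0 of the 10, where it called 277 of all 13049 tested genes. Between corticosterone-treated males and females, 2 of the 10 were higher in males, where 9.31% of all tested genes were higher and 14% lower. Ryr1 was 1.90-fold higher (log2FC 0.93, SE 0.17, adjusted p = 0.000404), with every male above every female. Jph1 was 1.56-fold higher (log2FC 0.64, SE 0.16, adjusted p = 0.00359), likewise with no overlap. DESeq2 called 3, adding Atp2a1 (0.55, adjusted p = 0.00255), where it called 3866 of all 13049 tested genes in either direction. Some markers of other cells were lower in the same males, with all 3 Schwann cell markers (summed 21.6 to 55.9 CPM in males, 49.4 to 178 in females), 3 of 4 fibroblast markers (302 to 463 against 461 to 853) and 2 of 3 macrophage markers (16.1 to 24.8 against 19.8 to 62.7) past the threshold. None of the 5 hepatocyte markers passed (median log2FC 0.02), nor did any of the 6 adipocyte markers (-2.97). Muscle markers were higher in these males for 2 of 9 of fast fibers (median log2FC 0.48) and 1 of 6 of skeletal muscle (0.47). Their part in the differences was not tested. The call of Jph1 was lost without F6 or F10, with an adjusted p of at most 0.0119. Without F2, F6 and F10, 0 of the 10 and 206 of all 13049 tested genes passed. The log2FC was then 0.81 for Ryr1 (adjusted p = 0.0199) and 0.44 for Jph1 (adjusted p = 0.19). Whether males and females were processed together is not given in the sources used here, and a batch and the sex cannot be told apart. The comparison of corticosterone-treated males and females shares its mice with the comparisons within a sex.

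Other genes of calcium handling were taken from 6 lists with 55 genes, of which 53 were tested. These lists were also chosen with earlier results of these data known, which limits the comparison of their shares with all genes. In males 5 rose and 6 fell, where 13.2% and 13.1% of all tested genes did, with a median log2FC of -0.11 against -0.02 over all tested genes. The shares of this list that rose or fell in males were thus below those of all genes. In females 0 rose and 13 fell, where 7.40% and 6% of all tested genes did, with a median of -0.20 against 0.04, and DESeq2 called 1 that rose and 20 that fell. The falls in females numbered 3 with the adipocyte score as a covariate and 0 without F2, F6 and F10. Calls over all 13049 tested genes, in either direction, changed as well. In females they numbered 1748 in the main fit, 2419 in DESeq2, 743 with that covariate and 130 without F2, F6 and F10.

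Among the 5 partners of the voltage sensor, 2 rose in males, where 13.2% of all tested genes rose, and 2 fell in females, where 6% fell. Cacng1, the gamma subunit of the channel, rose in males by 0.83 on the log2 scale (SE 0.21, adjusted p = 0.00401), from a mean of 269.9 to 478 CPM. Cacnb1, its beta subunit, rose by 0.53 (SE 0.12, adjusted p = 0.00126). Stac3, an adaptor that the voltage sensor needs to couple to Ryr1, fell in females by 0.93 (SE 0.17, adjusted p = 0.00055), from a mean of 306 to 161 CPM. In males Stac3 had a log2FC of -0.53 (adjusted p = 0.0114).

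Of the 15 tested genes of the release site and triad, 2 fell in males, close to the 13.1% of all tested genes that fell, and 3 in females, where 6% fell. Sypl2, the mitsugumin of the triad junction, fell in males by 0.94 (SE 0.18, adjusted p = 0.000281) and had a log2FC of -0.89 in females (adjusted p = 0.00179). None of the 3 tested calcium pump regulators passed in either sex, all 3 staying at or above an adjusted p of 0.0136. The 9 genes of calcium entry and exit at the surface membrane included 3 falls in males and 4 in females, against the same 13.1% and 6% of all tested genes. Slc8a3, a sodium-calcium exchanger, fell by 1.28 in males (SE 0.28, adjusted p = 0.001) and by 1.08 in females (SE 0.29, adjusted p = 0.00951). Atp2b3, a calcium pump of the plasma membrane with a mean of 12.8 CPM in vehicle-treated females, fell there by 0.96 (SE 0.19, adjusted p = 0.000987).

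Of the 7 genes of mitochondrial calcium uptake, 1 fell in males and 2 in females, where 13.1% and 6% of all tested genes fell. Mcub, a subunit that dampens the uniporter, fell in males by 1.38 (SE 0.36, adjusted p = 0.00444), at a low level that went from a mean of 1.25 to 0.473 CPM. Calcineurin, NFAT and the calmodulin kinases, which read the calcium signal, counted 3 rises in males and 2 falls in females among 14 genes, where 13.2% of all tested genes rose in males and 6% fell in females. Myoz1, calsarcin-2, which binds calcineurin at the Z-disc of fast fibers, rose in males by 0.75 (SE 0.14, adjusted p = 0.000336). Its log2FC in females was 0.33 (adjusted p = 0.105).

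The genes most alike to the 4 that passed were found from deviations of log2 CPM from the group mean over all 23 mice. Mice of the same group differed in muscle composition, with slow fiber scores from -1.05 to 9.21 among vehicle-treated males. The part of composition in these correlations was not tested. Casq1 was most like Pvalb (Pearson's r = 0.93, Spearman's rho = 0.93, and r = 0.93 without the 2 mice farthest from the median), followed by Hfe2 and Tmem233 (r = 0.91 each). Pvalb was most like Reep1 (r = 0.96), then Casq1 and Msrb3. The 2 genes that fell in both sexes thus varied together among mice of the same group, but this was not particular to them. Other members that were not called as falling varied with them as well. Jph1 had an r of 0.88 with Pvalb and 0.80 with Casq1, and Trdn 0.81 and 0.82. Atp2a1, which rose in males, had 0.77 with Pvalb and 0.69 with Casq1. Ryr1 was most like Cmya5 (r = 0.93), Ube3b and Man2a2, and Atp2a1 was most like Cops7a (r = 0.93), Popdc2 and Actn3, the actinin of fast fibers. The r values of the most alike genes are the highest among all tested genes, and all r values here are given without a p.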

How the data were processed

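Stranded mRNA libraries of 23 quadriceps were sequenced as read pairs. Per the labels and the study's methods, the authors aligned reads to mm10 with STAR 2.7.3a and counted pairs on single genes by strand with HTSeq 0.12.4 (Ensembl release 97). They deposited raw counts without normalization. The 5 summary entries for unassigned reads (10.7% to 15.3% per mouse) entered neither library sizes nor tests. Reads shared by 2 genes of the same strand are not counted, which touches Ryr1, Cacna1s, Atp2a2, Casq2 and Trdn. Names, positions and exon lengths came from GENCODE M21 (GRCm38), which matched 55480 of the IDs.

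Groups follow the sex and treatment labels. The members and lists were chosen with earlier results of these data known. The test was edgeR 4.0.16 (R 4.3.3) with quasi-likelihood, TMM and a mean per group, on the 13049 genes above 20 normalized counts in 4 or more mice of any group. The threshold was a Benjamini-Hochberg adjusted p of 0.01 over all of them, as in the study, which named DESeq2. CPM used TMM-scaled library sizes, and log2 CPM a prior count of 1. Ratios were compared by two-sided exact permutation tests over mice (scipy 1.17.1), with 0.5 counts added to the numerator, adjusted over 6 tests. The code was tested on simulated data. Named are all 10 genes, the 3 largest rises and falls among other calcium genes that passed in each sex, and the 3 genes most correlated with each member that passed. Alternatives were DESeq2 1.42.0, limma-voom (limma 3.58.1), median of ratios scaling, other filters, a log2FC beyond 1, each sex alone, score covariates, a replicate block, leaving out each mouse and, chosen after seeing the data, leaving out F2, F6 and F10. A planned correlation with the slow fiber score was dropped because the mice fell into clusters. Counts of any 2 replicates differed beyond sampling noise (chi-square at least 15.0 per degree of freedom).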

Additional observations from a re-analysis of the deposited data

Results flagged for a closer look

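In 40 groups of values, 10 genes in 4 groups, the gap of the highest or lowest mouse to its neighbour was set against the range of its group by Dixon's test at the 95% level, which chance passes in a few of so many groups, and 2 stood out. Sln in corticosterone-treated females was 39.4 CPM in F2, against 2.36 to 12.6 in the other 4. F2 also had the highest slow fiber score of that group, 8.42. Jph1 in corticosterone-treated males was 293 CPM in M10, against 355 to 362 in the other 5.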

How the results depend on the processing

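All 4 calls in males kept their direction in every alternative run, and the 2 calls in females as well, while fewer or more passed the threshold. The number of members called in males was 6 with the slow fiber covariate (adding Sln and Casq2), 5 with each sex alone, with limma-voom and without F2, F6 and F10 (adding Cacna1s), 3 with no gene filter, 1 with a log2FC beyond 1, and 3 to 4 when 1 mouse was left out, where Pvalb was lost without M7 or M10. Over all 13049 tested genes, calls in males numbered 3426 in the main fit and 3676 with the slow fiber covariate. They numbered 3634 with each sex alone, 4129 with limma-voom, 3697 without F2, F6 and F10, and 982 with a log2FC beyond 1. With no gene filter 2837 of 31922 genes were called. In females the number of members called was 0 with the adipocyte covariate, with each sex alone and without F2, F6 and F10, 1 with a log2FC beyond 1, and 1 to 3 when 1 mouse was left out, where Casq1 was lost without F6, F7, F9 or F10. Calls over all 13049 tested genes dropped as well, from 1748 in the main fit to 743 with the adipocyte covariate. They numbered 561 with each sex alone, 130 without F2, F6 and F10, 732 with a log2FC beyond 1, and 1004 to 2359 when 1 mouse was left out. The interaction counted 1 member in DESeq2, and 909 of all 13049 tested genes. Corticosterone-treated males against females counted 3 in DESeq2, 1 with the adipocyte covariate, 0 without F2, F6 and F10, 0 with a log2FC beyond 1, and 1 to 3 when 1 mouse was left out, where Jph1 was lost without F6 or F10. Over all 13049 tested genes this comparison counted 3043 in the main fit, 3866 in DESeq2 and 1757 with the adipocyte covariate. It counted 206 without F2, F6 and F10 and 1014 with a log2FC beyond 1.

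The replicate block raised the count of members between corticosterone-treated sexes to 4, adding Cacna1s (adjusted p = 0.0061) and Atp2a1 (adjusted p = 0.00697). With the block 2262 of all 13049 tested genes passed. The deviations of same-numbered males and females of a treatment correlated by 0.0846 to 0.477 in the 6 vehicle pairs and by -0.377 to 0.242 in the 5 corticosterone pairs, 7 of all 11 pairs being over 0.1. As not every pair was, and 4 of 11 correlated best with their own number, the numbers were not taken to pair the mice. Among vehicle-treated mice, however, the slow fiber score followed the number. M3, F3, M5 and F5 were in the higher cluster, and numbers 1, 7, 9 and 11 of both sexes in the lower one. With corticosterone, numbers 2, 6 and 8 were in different clusters in males and females. The block gave reversed signs for the interaction of Casq2 (0.38) and for Atp2a2 between vehicle-treated sexes (0.052).

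Casq2 to Casq1 ranged from 2.03 to 2.90 in males and from 1.85 to 2.71 in females when 1 mouse was left out, with adjusted p under 0.05 without M8, F3, F4 or F5. Atp2a2 to Atp2a1 in females turned to -0.39 without F2, F6 and F10.

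Reversed signs arose elsewhere for values that did not pass. In females without F2, F6 and F10 the log2FC was 0.052 for Ryr1, 0.14 for Cacna1s, -0.28 for Sln, 0.10 for Trdn and -0.25 for Mcub, the interaction of Pvalb was -0.071 and its difference between corticosterone-treated sexes -0.093. With the adipocyte covariate Trdn was 0.070 and Mcub -0.19 in females, and between vehicle-treated sexes Atp2a2 was 0.13 and Pvalb 0.0069. With the slow fiber covariate Atp2a2 was 0.46 between vehicle-treated and 0.13 between corticosterone-treated sexes, Casq2 0.15 between the latter and 0.69 for the interaction. With limma-voom Atp2a2 was 1.56 in females and 0.17 between vehicle-treated sexes, and the interaction of Casq2 0.40.

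Leaving out 1 mouse, the log2FC in females ranged from -0.83 to 0.79 for Atp2a2, from -0.15 to 0.037 for Ryr1, from -0.030 to 1.60 for Sln, from -0.17 to 0.011 for Trdn and from -0.202 to 0.243 for Mcub, and in males from -0.011 to 0.13 for Jph1. Between vehicle-treated sexes it ranged from -1.02 to 0.92 for Atp2a2, from -0.037 to 0.15 for Jph1, from -0.11 to 0.070 for Pvalb and from -0.16 to 0.024 for Trdn, between corticosterone-treated sexes from -0.14 to 1.07 for Sln, and for the interaction from -1.92 to 0.041 for Atp2a2 and from -0.36 to 0.45 for Casq2. The cause of these changes was not tested.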
